A study of Saccharomyces cerevisiae with 72 samples.

Results

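Cycling *cdc24-1 swe1Δ* cells were compared after 16 h of growth at permissive temperature and at the start of that growth, 0 h. The comparison rested on every library that the labels assign to strain 41742, a temperature of 25 °C and one of these times: 3 libraries at 16 h and 3 libraries at 0 h. They were 6 of the 72 libraries of the series and 6 of the 21 made from the strain. The strain is *MATa*, with *SWE1* replaced by *kanMX* and the temperature-sensitive *cdc24-1* allele, and it also carries *ade2-1*, *can1-100*, *his3-11,15*, *leu2-3*, *trp1-1* and *ura3* in an S288C-derived background backcrossed to W303. Both groups share all of these alleles, received no drug, and grew in rich glucose medium with added adenine, diluted with sterile medium to keep the cells in log phase. The labels give 25 °C, whereas the growth protocol names 24 °C for these cells. One strain was used, and the 3 replicate numbers stand for replicate cultures. The paper reports that a cell type was sampled over time from the same culture. The labels do not state that a number marks the same culture at 0 h and 16 h. The main fit was therefore unpaired, and a block for the replicate number was an alternative. The edgeR p-values set each change against the spread between replicate cultures within groups, and not against that between strains. That spread was estimated over 36 libraries, or 72 for the comparison with another strain, and not over these cultures alone. The 36 were the 21 of this strain and those of a *MATα* *cdc24-1 swe1Δ* strain. That second strain also carries a temperature-sensitive *CDC20* allele and arrests in mitosis at 37 °C. The changes were set beside those of *cdc24-1 swe1Δ* cells of the same strain, which became polyploid over 16 h at 37 °C, and of cycling *mad1Δ bub2Δ* cells (strain 41994), grown with the solvent DMSO at 30 °C, each with 3 libraries at 16 h and 3 at 0 h.

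Cdc24 activates the GTPase Cdc42, which directs bud emergence, and Swe1 is the kinase that delays mitosis when buds fail to form. At permissive temperature the mutant buds and divides, so these cells served as the cycling, haploid counterpart of the cells made polyploid at 37 °C. In yeast growing on glucose, genes for making ribosomes are transcribed strongly. Genes activated by the stress transcription factors Msn2 and Msn4, among them those for the reserve carbohydrates trehalose and glycogen, are repressed by protein kinase A, and both sets of genes respond in opposite directions when glucose runs low or cells are stressed.

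The 6 libraries held 5647146 to 9646255 estimated counts each, which limits precision for genes of few counts. Ribosomal RNA made up between 0.736% and 5.52% of a library, the highest share being that of the 0 h replicate 1 library. *SWE1* had 0 counts in all 6 libraries, and the limit that this sets is 3 counts. *STE2*, the α-factor receptor made by *MATa* cells, had 517, 569 and 508 CPM (counts scaled to a common library total) at 16 h, against 312, 383 and 467 CPM at 0 h. *STE3*, the receptor made by *MATα* cells, was at or below 1.26 CPM in every library, and *MF(ALPHA)2* had 0 counts. The other *MATα* genes of the list were not at 0: *SAG1*, the α-agglutinin, had 19.95, 21.6 and 22.04 CPM at 16 h, against 35.7, 34.8 and 27.3 CPM at 0 h (log2 change −0.63, edgeR adjusted p = 0.0156), and *MF(ALPHA)1* had 4.62 CPM in 16 h replicate 1 and at most 0.718 CPM in the other 5 libraries. *MFA1* and *MFA2*, which encode the short **a**-factor precursors, were below 2 CPM in all 6 libraries, although *MATa* cells are known to express them strongly. Thus 1 defining marker pair of the labelled mating type was near 0, while *STE2* and *STE6*, the **a**-factor exporter at 303 to 678 CPM, were not. Of the other *MATa* genes of the list, *BAR1* had 120 to 310 CPM. Both *ASG7*, at 5.03 to 11.8 CPM, and *AGA2*, at 4.28 to 6.46 CPM, were low and below *SAG1* in every library.

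The mean DNA content recorded for each library was 85.7, 86.6 and 99.7 kAU (1000 arbitrary units) at 16 h, against 107, 105 and 105 kAU at 0 h. All 16 h values lay below all 0 h values. The mean was 90.7 ± 7.81 kAU at 16 h and 106 ± 1.43 kAU at 0 h (SD, n = 3 each), a difference of −15.0 kAU and a ratio of 0.858. An exact two-sided permutation test gave p = 0.1, the smallest that 3 against 3 cultures allow. Replicate 3 at 16 h lay nearest to the 0 h libraries. Whether the share of cells in each cell cycle phase moved with it was not tested.

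**Figure D1:**
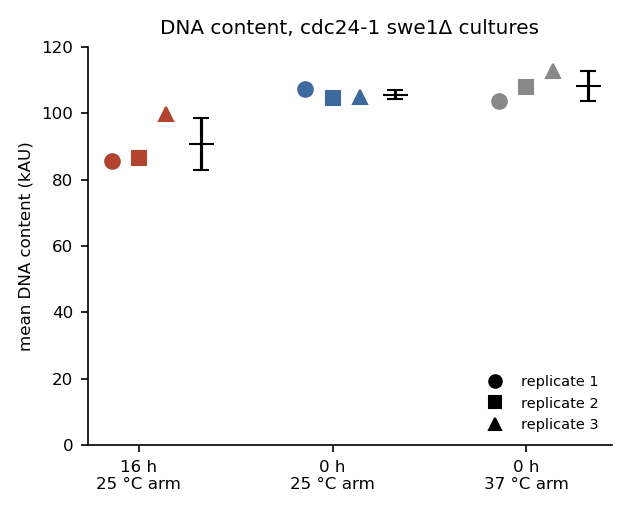
Mean DNA content (kAU) of each library of *cdc24-1 swe1Δ* cells at 16 h and 0 h of the 25 °C arm and at 0 h of the 37 °C arm, with bars at the group mean ± SD and markers for replicates 1 to 3. The 16 h libraries lie between 85.7 and 99.7 kAU, all below the 0 h libraries of either arm.

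Over 16 h, genes for ribosome assembly rose, and genes activated by Msn2 and Msn4, genes for reserve carbohydrates and the hexose transporters *HXT6* and *HXT7* fell. Of 6028 genes tested with edgeR's quasi-likelihood test, 822 (13.6%) passed a Benjamini-Hochberg adjusted p under 0.05. Of these, 414 (6.87%) were higher at 16 h and 408 (6.77%) were lower. The falls were the larger changes: 177 of the genes that fell did so by at least 2-fold, whereas 26 of those that rose did. The median log2 change over all genes tested was −0.02. For 733 of the 822 genes, the 16 h and 0 h values did not overlap. Without overlap, 15.6% of all genes tested were higher and 14.2% were lower. The calls rested on a spread estimated over the 36 libraries of the *cdc24-1 swe1Δ* test. Of these, 21 were of the strain compared here, and the rest were of the *MATα* strain with the *CDC20* allele. With the spread taken from the 6 libraries alone, which leaves 4 instead of 24 residual degrees of freedom, 139 genes (2.45%) were called, 71 (1.25%) higher and 68 (1.2%) lower, and 136 of them were among the 822 with the same direction. These fits did not pair 16 h with 0 h libraries. With a block for the replicate number, 831 genes were called over the 36 libraries and 382 over the 6. Leaving out 1 library at a time gave 502 calls without 0 h replicate 1, 364 without 0 h replicate 2, 339 without 16 h replicate 2 and 274 without 16 h replicate 3. Called genes lay on all 16 chromosomes, with 11.0% of tested genes called on chromosome VII and 19.7% on chromosome III, and chromosome medians between −0.21 (chromosome I) and 0.03 (chromosome XV).

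Genes for ribosome biogenesis, the factors that process ribosomal RNA and assemble the subunits in the nucleolus, were higher at 16 h. Of the 65 tested members of this list, 44 rose and 0 fell. Their log2 changes ran from 0.11 to 1.16 with a median of 0.72, positive in all 65, and 16 h and 0 h values did not overlap for 49. *NOG2*, a GTPase that matures the large subunit for export, had 228, 310 and 341 CPM at 16 h, against 124, 95.6 and 175 CPM at 0 h (log2 change 1.16 ± 0.20 (SE), edgeR adjusted p = 5.1e-04). *NOP14*, a component of the small-subunit processome, had 176, 206 and 244 CPM at 16 h, against 97.8, 87.2 and 124 CPM at 0 h (log2 change 1.02 ± 0.19, adjusted p = 9.2e-04). For both genes the lowest 16 h library, replicate 1, lay above the highest 0 h library, replicate 3. *UTP4* (log2 change 1.01) of the small-subunit processome changed to a like extent. *NOG1* (1.00), *RRP12* (1.00) and *SSF1* (0.98), a GTPase, an export factor and a large-subunit assembly factor, also rose. Genes with related roles that are not members of this list rose too. They were *RIX1* (1.15), which acts in large-subunit processing, and *UTP6* (1.14) and *UTP9* (1.06) of the small-subunit processome.

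The count of this list depended on single libraries. It was 15 without 0 h replicate 2, 17 without 16 h replicate 3, 24 without 16 h replicate 2 and 29 without 0 h replicate 1, and 15 in the fit on the 6 libraries alone. Subunits of RNA polymerases I and III, which transcribe ribosomal RNA, 5S RNA and tRNA, rose for 9 of 23 tested members with a median of 0.53, and their log2 changes were positive in all 23. *RPC31* (0.72) and *RPO31* (0.66) of polymerase III and *RPA135* (0.66), the second-largest subunit of polymerase I, were among them. *RPA190*, the largest subunit of polymerase I, had a log2 change of 0.67 and did not pass (adjusted p = 0.061). That count was 3 without 0 h replicate 1, 1 without any one of 0 h replicate 2, 16 h replicate 2 and 16 h replicate 3, and 0 in the fit on the 6 libraries alone.

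Few genes for the structural proteins of the ribosome passed the test. Of 139 genes for cytoplasmic ribosomal proteins, 1 rose (*RPS9A*, log2 change 0.53) and 0 fell, and their median was −0.09. The median of these genes relative to their 0 h means was −0.24, 0.02 and 0.15 in the 16 h libraries, against −0.08, −0.41 and 0.49 in the 0 h libraries, so the 0 h libraries spanned a wider range than the 16 h libraries. Mitochondrial ribosomal proteins had 1 gene higher (*MRPL10*, 0.48) and 1 lower (*MRP8*, −0.49) of 67, with a median of 0.09. Many cytoplasmic ribosomal proteins are encoded by near-identical gene pairs whose reads can be divided between the copies, so the values of single members are uncertain.

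The stretch from 350 to 101 bases before the start codon was read for each gene from the RefSeq R64 genome, and 5686 of the 6028 tested genes had such a window. Known as binding motifs upstream of ribosome biogenesis genes are PAC (GATGAG) and RRPE (AAAATTTT), and as the binding motif of Msn2 and Msn4 the stress response element, STRE (AGGGG). Each was counted on either strand, and none of the 3 contains another. PAC was present in 67.7% of the windows of the ribosome biogenesis list, 37.0% of those of genes that rose and 12.7% of those of genes that fell, against 15.7% of all windows. RRPE was present in 70.8% of the windows of that list, 30.8% of those of genes that rose and 2.48% of those of genes that fell, against 8.55% of all windows. Windows of the polymerase I and III list held PAC in 60.9% and RRPE in 43.5%. STRE was present in 86.1% of the windows of the Msn2/Msn4 list, in 85.0% for trehalose and glycogen genes, in 53.6% for genes that fell and in 8.23% for genes that rose, against 20.3% of all windows. The ribosome biogenesis and Msn2/Msn4 lists are known for these motifs, so their shares are a description of the lists. The windows of *NOG2* (chrXIV:723213-723462, minus strand) and *NOP14* (chrIV:190687-190936, minus strand) are shown because both held PAC and RRPE, with 1 PAC motif each, 2 RRPE motifs in *NOG2* and 1 in *NOP14*. The letters of both motifs are in capitals, and each window reads 5′ to 3′ on the strand of its gene.
NOG2: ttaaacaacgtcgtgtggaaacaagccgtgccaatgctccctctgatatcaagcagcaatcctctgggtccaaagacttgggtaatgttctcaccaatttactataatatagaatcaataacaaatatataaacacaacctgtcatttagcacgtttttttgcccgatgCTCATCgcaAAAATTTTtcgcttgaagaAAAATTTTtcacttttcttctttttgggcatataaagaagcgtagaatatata
NOP14: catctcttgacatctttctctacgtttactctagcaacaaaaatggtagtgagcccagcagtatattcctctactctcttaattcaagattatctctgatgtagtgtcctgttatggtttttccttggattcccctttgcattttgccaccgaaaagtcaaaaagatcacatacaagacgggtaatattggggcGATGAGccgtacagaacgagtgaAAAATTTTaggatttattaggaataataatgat
*UTP4*, which rose by a similar amount, had neither motif in its window. The windows of *GPH1* (chrXVI:860956-861205, plus strand), *TSL1* (chrXIII:70274-70523, plus strand) and *GSY1* (chrVI:176492-176741, minus strand) are shown as those of reserve carbohydrate genes that fell, with the letters of STRE in capitals. *TSL1* had 4 matches, and the other two windows had 1 each.
GPH1: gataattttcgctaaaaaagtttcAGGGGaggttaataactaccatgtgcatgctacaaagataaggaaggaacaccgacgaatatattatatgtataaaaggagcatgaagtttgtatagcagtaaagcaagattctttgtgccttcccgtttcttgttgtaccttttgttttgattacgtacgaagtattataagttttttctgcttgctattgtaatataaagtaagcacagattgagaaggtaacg
TSL1: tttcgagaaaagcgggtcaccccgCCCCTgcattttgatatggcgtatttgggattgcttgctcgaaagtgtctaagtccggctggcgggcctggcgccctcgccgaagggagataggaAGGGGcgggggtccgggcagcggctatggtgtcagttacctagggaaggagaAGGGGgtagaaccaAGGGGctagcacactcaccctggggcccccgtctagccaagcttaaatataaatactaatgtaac
GSY1: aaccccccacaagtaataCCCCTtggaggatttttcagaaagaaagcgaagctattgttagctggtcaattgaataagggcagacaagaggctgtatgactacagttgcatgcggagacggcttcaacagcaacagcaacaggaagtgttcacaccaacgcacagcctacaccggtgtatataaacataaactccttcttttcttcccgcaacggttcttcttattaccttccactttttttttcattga
A match is a description of the letters in the window and not evidence of a bound factor.

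Genes induced by Msn2 and Msn4 fell. Of the 36 tested members of this list, 29 fell and 0 rose, with a median log2 change of −1.56. *CTT1*, cytosolic catalase, had 66.7, 30.7 and 21.5 CPM at 16 h, against 214, 217 and 103 CPM at 0 h (log2 change −2.15 ± 0.34, edgeR adjusted p = 1.8e-04). *RTN2*, a reticulon-like protein of the endoplasmic reticulum, had 45.2, 22.2 and 16.8 CPM at 16 h, against 191, 367 and 155 CPM at 0 h (−3.06 ± 0.40, adjusted p = 2.3e-05). The groups did not overlap in either gene, and 16 h replicate 1 was the highest of the 16 h libraries in both. In *HSP12* and *HSP26*, a membrane-protecting protein and a small heat shock chaperone, that library stood apart from the other 16 h libraries. *HSP12* had 323, 10.4 and 10.1 CPM at 16 h, against 83.7, 145 and 62.5 CPM at 0 h (log2 change 0.24, adjusted p = 0.856). *HSP26* had 95.3, 4.81 and 5.41 CPM at 16 h, against 62.4, 111 and 35.2 CPM at 0 h (−0.96, adjusted p = 0.320). In 16 h replicates 2 and 3 both genes were below every 0 h library, and in 16 h replicate 1 *HSP12* was above every 0 h library. The list count was 17 without 16 h replicate 3, 18 without 16 h replicate 2, 34 without 16 h replicate 1 and 13 in the fit on the 6 libraries alone.

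Other protective genes moved less. Of 22 heat shock chaperones, 5 fell and 0 rose (median −0.18), among them *HSP30* (−1.78), a plasma membrane protein, *SSE2* (−1.59), a nucleotide exchange factor, and the cytosolic Hsp70 *SSA1* (−0.94), whose reads can be shared with *SSA2*. The count of 5 was 3 without 0 h replicate 1, 2 without 0 h replicate 2, 1 without 16 h replicate 2 and 0 without 16 h replicate 3. Of 25 oxidative stress genes, 7 fell and 0 rose (median −0.51), including the glutaredoxins *GRX1* (−0.96) and *GRX2* (−0.61), the peroxiredoxin *AHP1* (−0.88) and mitochondrial superoxide dismutase *SOD2* (−0.76). That count was 4 without 0 h replicate 1, 2 without 0 h replicate 2, 1 without 16 h replicate 2 and 0 without 16 h replicate 3.

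Genes for both making and breaking down trehalose and glycogen fell. Of 20 tested members, 15 fell and 0 rose, and the median log2 change was −1.21. *TSL1*, a regulatory subunit of trehalose synthase, had 184, 108 and 54.9 CPM at 16 h, against 807, 691 and 414 CPM at 0 h (log2 change −2.46 ± 0.34, edgeR adjusted p = 3.8e-05). *GSY1*, glycogen synthase, had 65.8, 49.2 and 19.9 CPM at 16 h, against 260, 253 and 220 CPM at 0 h (−2.43 ± 0.32, adjusted p = 2.3e-05). *GPH1*, glycogen phosphorylase, had 80.6, 13.9 and 9.67 CPM at 16 h, against 213, 396 and 147 CPM at 0 h (−2.83 ± 0.51, adjusted p = 6.8e-04). In all 3 genes the groups did not overlap and 16 h replicate 3 was the lowest library. The branching enzyme *GLC3* (−2.40), phosphoglucomutase *PGM2* (−2.26), the phosphatase subunit *GAC1* (−1.92) and the second glycogen synthase *GSY2* (−1.51) fell with them. The catalytic subunits of trehalose synthesis, *TPS1* (−1.05) and *TPS2* (−1.02), and *UGP1* (−1.03), which makes UDP-glucose for both polymers, fell less. The count ran from 13 to 18 when single libraries were left out, and was 7 in the fit on the 6 libraries alone.

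**Figure D2:**
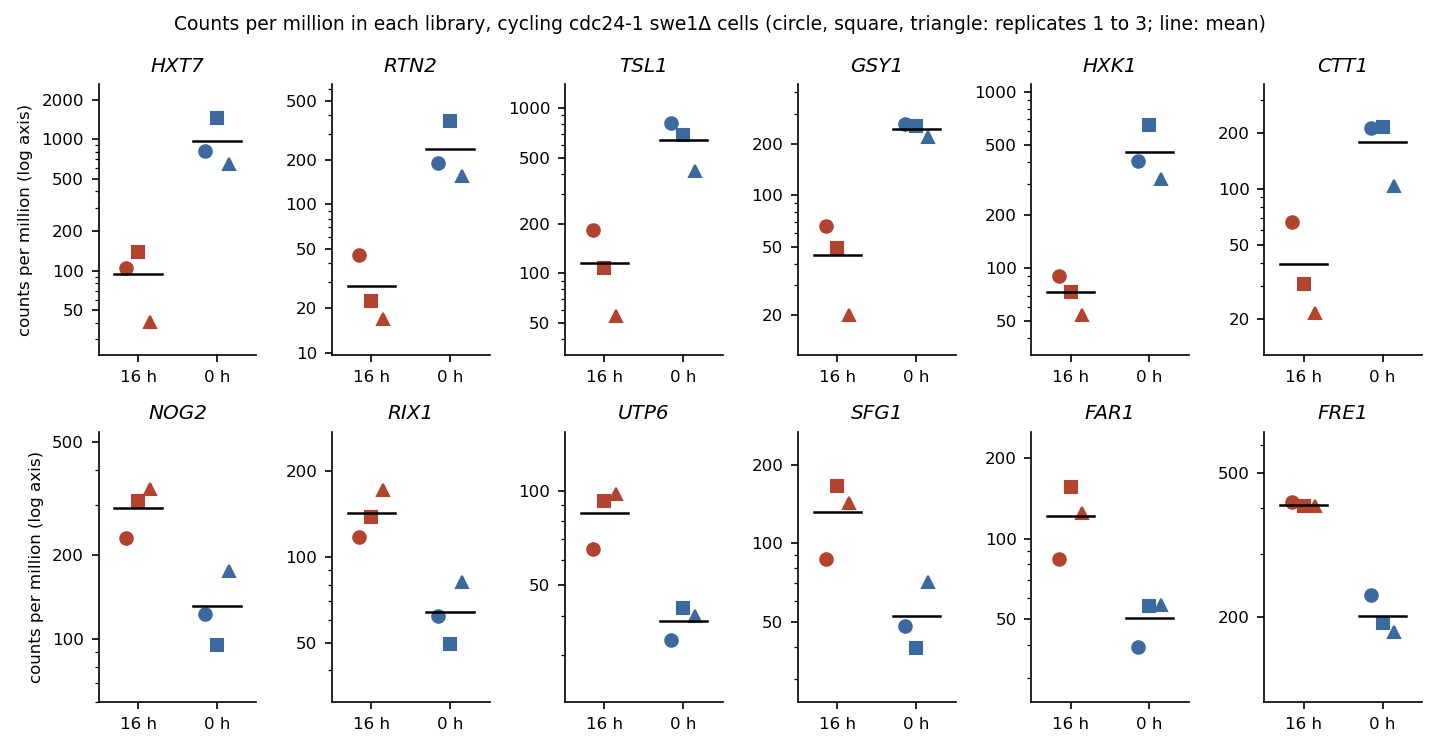
CPM (log axes) of 12 genes in the 3 libraries at 16 h (left in each panel) and the 3 libraries at 0 h of cycling *cdc24-1 swe1Δ* cells, with a line at each mean and a marker for each replicate number. Most of the 12 genes were taken from the largest rises and falls, which were ranked only among genes without overlap. That the groups do not overlap in this figure thus follows from the choice of genes. The upper genes, such as *HXT7* (105, 139 and 40.8 CPM at 16 h), are lower at 16 h, and the lower genes, such as *NOG2*, are higher.

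Over all genes tested, log2 changes ran from −6.34 to 4.96. Among called genes with a symbol, a mean of at least 5 CPM in the higher group and no overlap between groups, *HXT7* fell most. *HXT7*, a high-affinity hexose transporter on chromosome IV (chrIV:1154216-1155928), had 105, 139 and 40.8 CPM at 16 h, against 810, 1451 and 651 CPM at 0 h (log2 change −3.35 ± 0.45, edgeR adjusted p = 3.4e-05). Its neighbour *HXT6* (chrIV:1159608-1161320) is a near-identical copy, so reads can be divided between them, and it had 28.0, 7.22 and 18.6 CPM at 16 h, against 84.4, 318 and 118 CPM at 0 h (−3.27). Summed over both genes, there were 132, 146 and 59.4 CPM at 16 h, against 894, 1770 and 770 CPM at 0 h, with no overlap. *HXT4* (−2.05), another hexose transporter, *MTH1* (−1.53), a repressor of *HXT* genes, and *MIG1* (−0.79), the glucose repressor, also fell. The low-affinity transporters *HXT1* (log2 change 0.25) and *HXT3* (−0.33) and the transporter *HXT2* (−0.03) did not pass the test. In all, 7 of 23 tested members of the hexose transport and glucose sensing list fell and 0 rose, with a median of −0.79, and between 5 and 8 fell when single libraries were left out. *HXK1*, a hexokinase isozyme that glucose represses, had 90.6, 73.4 and 54.5 CPM at 16 h, against 404, 650 and 322 CPM at 0 h (−2.65, adjusted p = 1.4e-04).

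Some genes of glycolysis and of growth on other carbon sources fell, and few of respiration. All 22 glycolysis and fermentation genes had negative log2 changes (median −0.47) and 5 fell: *TDH1* (−2.70), a glyceraldehyde-3-phosphate dehydrogenase, *ADH5* (−1.57), an alcohol dehydrogenase, *ENO1* (−1.30), an enolase, and the glycerol-3-phosphate dehydrogenases *GPD1* (−1.05) and *GPD2* (−0.87). Several of these have similar copies elsewhere in the genome. Of 31 genes for gluconeogenesis and nonfermentable carbon, 8 fell and 0 rose (median −0.69), including *ALD4* (−1.34), mitochondrial aldehyde dehydrogenase, and *CAT2* (−1.07), carnitine acetyltransferase. *FBP1*, fructose-1,6-bisphosphatase, fell as well, at values below 3 CPM in all 6 libraries (−2.37). That count was 18 without 16 h replicate 1, 5 without either 0 h replicate 1 or 16 h replicate 2, 4 without either 0 h replicate 2 or 16 h replicate 3, and 0 in the fit on the 6 libraries alone. In the TCA cycle 4 of 21 genes fell (*SDH1*, *MDH1*, *SDH4* and *CIT1*, −0.56 to −0.81), and in oxidative phosphorylation 3 of 38 fell (*CYC7*, *STF1* and *NDI1*), a share of 7.89% beside the 6.77% of all genes. Without 16 h replicate 3 both counts were 0. Leaving out 0 h replicate 2 or 16 h replicate 2 took the TCA count to 1 and 2 and the other count to 0, and leaving out 0 h replicate 1 took them to 2 and 2. Without 16 h replicate 1, they were 7 and 6.

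**Figure D3:**
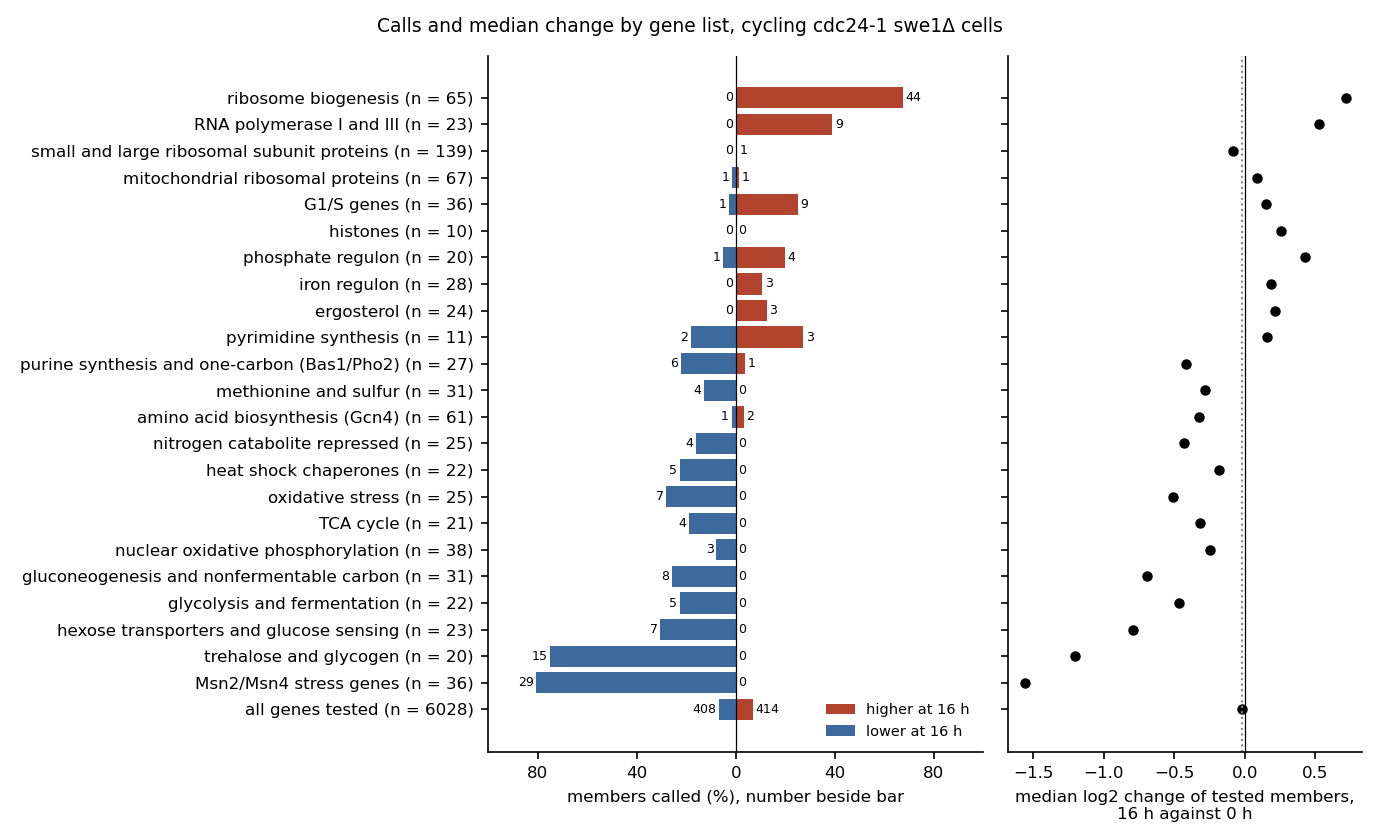
Share of the tested members of each gene list called higher (right) or lower (left) at 16 h than at 0 h, with the number of genes beside each bar, and the median log2 change of all tested members (right panel, dotted line at the median of all 6028 genes). Ribosome biogenesis (44 of 65 higher) and the Msn2/Msn4 (29 of 36 lower) and trehalose and glycogen (15 of 20 lower) lists lie farthest from the 6.87% and 6.77% of all genes.

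Among genes of the cell cycle and of mating, small rises were seen at G1/S. Of 36 G1/S genes, 9 rose and 1 fell (median 0.15). The DNA polymerase genes *POL1* (0.82), *POL2* (0.70) and *POL12* (0.60), the DNA ligase *CDC9* (0.65), the flap nuclease *RAD27* (0.58) and the cohesin subunit *SMC3* (0.72) rose, while *PCL1*, a cyclin of the kinase Pho85, fell (−1.13). The G1 cyclins *CLN1* (−0.10), *CLN2* (0.14) and *CLN3* (0.17) did not pass the test. The count of 9 was 4 without 0 h replicate 1, 5 without 0 h replicate 2, 6 without 0 h replicate 3, 2 without 16 h replicate 2 and 3 without 16 h replicate 3. Of 27 G2/M genes, 2 rose and 0 fell (*BUD3* and *MYO1*), of 20 genes of the M/G1 list 2 rose (*CYK3* and *PCL9*). The 10 histone genes tested had a median of 0.26.

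*FAR1*, an inhibitor of the G1 cyclin-dependent kinase that mediates arrest by pheromone, had 84.0, 157 and 125 CPM at 16 h, against 39.0, 55.7 and 56.5 CPM at 0 h (log2 change 1.28 ± 0.24, edgeR adjusted p = 9.5e-04). *GPA1* (0.59), the Gα subunit of the receptor, and *STE12* (0.57), the pathway's transcription factor, rose too, as the other called members of the 33 pheromone response genes tested (median 0.08). *STE6* (0.88) did not pass (adjusted p = 0.179). Of 30 polarity and septin genes, 1 rose, the formin *BNR1* (0.64), and *CDC24* itself had 100, 108 and 107 CPM at 16 h, against 92.7, 93.3 and 101 CPM at 0 h (0.14, adjusted p = 0.525). Among 32 cell wall genes, *TIP1* (−1.24), *MTL1* (−1.01) and *GSC2* (−0.70), a mannoprotein, a wall stress sensor and a glucan synthase subunit, fell and 0 rose. That count was 7 without 16 h replicate 1, 1 without any one 0 h library and 0 without either 16 h replicate 2 or 16 h replicate 3.

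Nutrient genes gave mixed values. In the phosphate regulon 4 of 20 members rose, *VTC2* (0.57), *VTC3* (0.86) and *VTC4* (0.53) of the polyphosphate polymerase and the kinase inhibitor *PHO81* (0.65), and the nucleotidase *PHM8* fell (−0.60), with a list median of 0.42. In the iron regulon 3 of 28 rose, *FRE1*, *FTR1* (0.94) and *SMF3* (0.51), a reductase, a permease and a vacuolar transporter. *FRE1* had 417, 406 and 406 CPM at 16 h, against 230, 193 and 182 CPM at 0 h (1.02 ± 0.20, edgeR adjusted p = 0.0014). Its groups were well separated. Of 24 ergosterol genes 3 rose, *ERG5* (0.92), *IDI1* (0.56) and *ERG8* (0.48), and 0 fell. Counts of the phosphate, iron and ergosterol lists ran from 2 to 5, 1 to 6 and 1 to 5 when single libraries were left out. They were 2, 1 and 3 without 0 h replicate 1, 2, 1 and 1 without 0 h replicate 2, 2, 1 and 2 without 16 h replicate 2 or 16 h replicate 3, and 5, 6 and 5 without 0 h replicate 3. The metallothionein *CUP1-1*, present in repeated copies, fell (−1.57).

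Several biosynthetic genes were called lower with 1 library far above the others. *ADE17*, an enzyme of purine synthesis, had 45.5, 21.1 and 15.9 CPM at 16 h, against 54.4, 484 and 22.7 CPM at 0 h (log2 change −2.75, edgeR adjusted p = 0.0122). The value of 0 h replicate 2 was far above the other 5, which overlapped between the groups, and without that library the log2 change was −0.49 (adjusted p = 0.663). The one-carbon genes *MTD1* (−1.67) and *SHM2* (−1.51) and the purine genes *ADE2* (−1.35) and *ADE1* (−1.06) were called in the same way, and *ADE2*, of which the strain carries a mutant allele, had a log2 change of −0.26 without it. Of 27 purine and one-carbon genes, 6 fell and 1 rose (*AAH1*, 0.88) with all libraries, and 0 fell without 0 h replicate 2 or without 16 h replicate 2, 1 without 16 h replicate 3. Without 16 h replicate 2 the log2 changes kept their size (*ADE17* −2.59, *MTD1* −1.64, *SHM2* −1.47, *ADE2* −1.38 and *ADE1* −1.12). The sixth gene, *IMD2* of GMP synthesis, had −0.54 without 0 h replicate 2, against −0.58 with it. Of the methionine and sulfur genes, 4 of 31 fell (*STR3*, *MET28*, *MUP3* and *MET13*), of the nitrogen-repressed genes 4 of 25 (*DUR12*, *CAR2*, *UGA1* and *GAT1*), and of the amino acid permeases 3 of 19 (*AGP1*, *AGP2* and *STP2*, a factor that activates them). Without 0 h replicate 2 these 3 counts were 0 in each list. For *MET13*, *CAR2*, *GAT1*, *AGP2* and *STP2* the log2 changes without it were −0.91, −1.26, −0.61, −0.69 and −0.54, against −0.93, −1.16, −0.60, −0.78 and −0.49 with it, so these calls were lost with little change in size. Without 16 h replicate 3 they were 0 too, and without 16 h replicate 2 they were 1, 0 and 0. Without 16 h replicate 1, they were 8, 9 and 5, the nitrogen-repressed count was 2 without 0 h replicate 3, and the permease count was 1 without 0 h replicate 1. Of the Gcn4 amino acid genes, 2 of 61 rose and 1 fell, *HIS4* (−1.75), which had a log2 change of −0.81 (adjusted p = 0.368) without 0 h replicate 2.

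The largest changes were ranked among called genes with a symbol, a mean of at least 5 CPM in the higher group and no overlap. Of the 15 largest rises so ranked, 6 were in genes for making ribosomes (*SYO1*, *NOG2*, *RIX1*, *UTP6*, *DHR2* and *UTP9*). *SYO1* (1.22) encodes a chaperone that imports ribosomal proteins, and *DHR2* (1.13) a nucleolar helicase. The largest of these 15 rises, that of *ECM13*, whose function is little known, was 1.48 at 32.5, 13.0 and 16.6 CPM at 16 h, against 9.52, 3.65 and 9.57 CPM at 0 h (edgeR adjusted p = 0.0167), and it did not pass without 16 h replicate 1 (adjusted p = 0.133) or 0 h replicate 2 (adjusted p = 0.116). *SFG1*, a transcription factor of pseudohyphal growth, had 86.8, 166 and 142 CPM at 16 h, against 47.9, 39.4 and 70.9 CPM at 0 h (1.33 ± 0.23, adjusted p = 4.7e-04). It passed whichever of the 6 libraries was left out. Of the largest falls so ranked that have not been given, *IGD1* (−2.54) inhibits glycogen debranching, *SPI1* (−2.53) is a cell wall protein and *EGO4* (−2.48) and *RTC3* (−2.32) are small proteins. *ADH2* (−2.43), the ethanol-oxidizing dehydrogenase, and *SDH9* (−2.45) fell at values below 8 CPM in all 6 libraries. In all, 607 of the 822 called genes were in none of the 41 lists.

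The libraries of a group differed in how far these lists had moved. Relative to 0 h means, the median of the Msn2/Msn4 list was −0.82, −1.99 and −1.97 in 16 h replicates 1, 2 and 3, against 0.00, 0.27 and −0.34 in the 0 h libraries. Trehalose and glycogen genes were at −0.76, −1.27 and −1.58 at 16 h, against 0.12, 0.18 and −0.38 at 0 h. Ribosome biogenesis genes were at 0.55, 0.74 and 0.87 at 16 h, against 0.05, −0.41 and 0.32 at 0 h. Replicate 1 was the least displaced of the 16 h libraries in these 3 lists, replicate 3 of the 0 h libraries lay nearest to the 16 h group in each, and no 16 h library overlapped a 0 h library. On the first principal component (47.6% of the variance of the 6 libraries) 16 h replicates 1, 2 and 3 lay at −1.67, −23.6 and −35.1, against 19.2, 28.1 and 13.1 for the 0 h libraries. Density at harvest was not used here, and its part in these values was not tested.

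**Figure D4:**
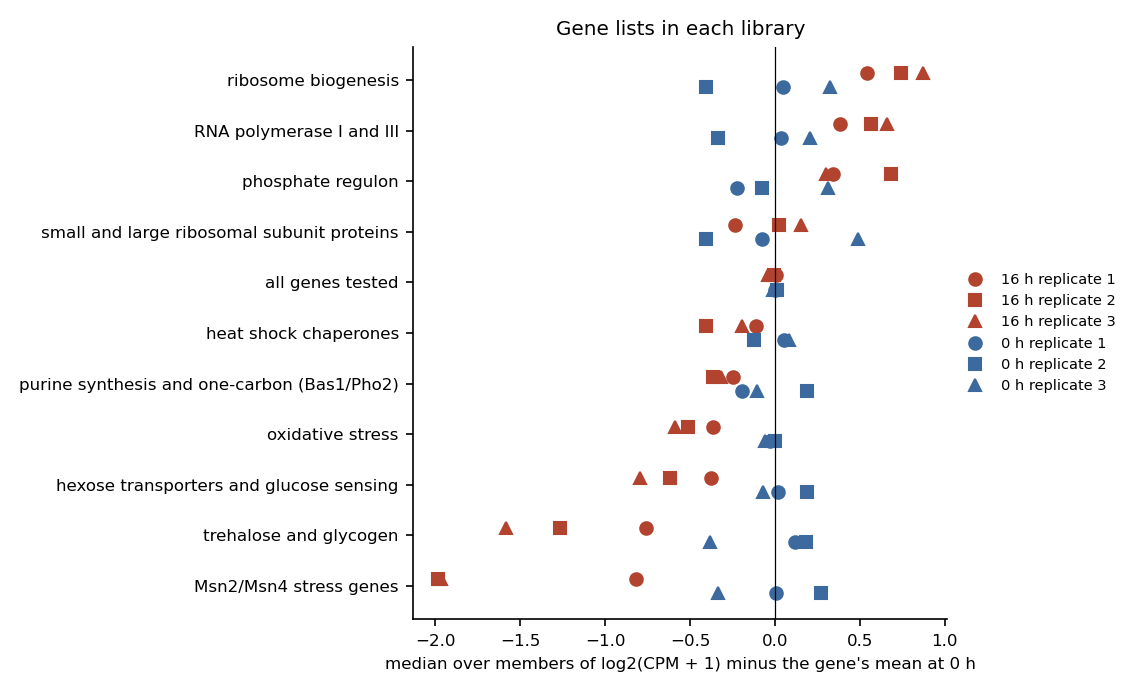
Median over the members of each list of log2(CPM + 1) minus the gene's mean at 0 h, in each of the 6 libraries (red, 16 h, drawn above blue, 0 h; markers for replicates 1 to 3). For Msn2/Msn4 genes the 16 h libraries lie at −0.82, −1.99 and −1.97, and all genes together lie near 0 in every library.

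The 0 h libraries could be set against the 3 libraries of the same strain taken at 0 h before the shift to 37 °C. Between the 25 °C arm and the 37 °C arm at 0 h, edgeR called 0 of 6028 genes (0.0%) and DESeq2 called 0, while 206 genes had an unadjusted p under 0.05 in edgeR. Same-numbered libraries of the arms differed by 0.41, 0.42 and 0.59 (root mean square of log2 CPM) for replicates 1, 2 and 3. Within the 25 °C arm at 0 h the values were 0.49, 0.54 and 0.67. Whether the arms shared starting cultures is not stated, so 0 calls cannot show that independent cultures were alike. With the 0 h libraries of the 37 °C arm in place of those of the 25 °C arm, 761 genes (12.6%) were called for the change to 16 h. Both sets of calls share the 16 h libraries, and their 0 h libraries may not be independent. Of the 822 genes, 554 (67.4%) were called again with the same sign. The counts were 47 genes higher for ribosome biogenesis, 28 lower for the Msn2/Msn4 list and 17 lower for trehalose and glycogen, whereas 1 purine and one-carbon gene was lower.

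The changes differed from those of cycling *mad1Δ bub2Δ* cells over the same time. In those cells 37.0% of 6148 genes changed, 20.9% higher and 16.1% lower. The difference between the changes of *cdc24-1 swe1Δ* and *mad1Δ bub2Δ* cells passed edgeR's test for 1338 genes (21.8%), 602 (9.79%) with a positive difference and 736 (12.0%) with a negative difference. The count was 624 without *mad1Δ bub2Δ* 16 h replicate 2 and 869 without *cdc24-1 swe1Δ* 16 h replicate 2. The balance of directions depended on the scale: by limma on log2(TPM + 1), where the median difference over all genes was 0.45, 1380 genes had a positive and 120 a negative difference, and 19 of the 1338 had the opposite sign. Strain, temperature and solvent all differ between these cells and cannot be told apart. Ribosome biogenesis genes, with 44 higher and 0 lower of 65 in *cdc24-1 swe1Δ* cells, had 14 higher and 5 lower in *mad1Δ bub2Δ* cells (median 0.14), and 22 had a positive and 0 a negative difference. Msn2/Msn4 genes, with 29 of 36 lower in *cdc24-1 swe1Δ* cells, had 3 higher and 1 lower in *mad1Δ bub2Δ* cells (median −0.17), and the difference was negative for 16. Genes for cytoplasmic ribosomal proteins had medians of −0.09 in *cdc24-1 swe1Δ* cells and 0.80 in *mad1Δ bub2Δ* cells, where 89 of 139 rose, and the difference was negative for 56. For oxidative phosphorylation the medians were −0.25 in *cdc24-1 swe1Δ* cells and 1.08 in *mad1Δ bub2Δ* cells, and the difference was negative for 27 of 38. In both the phosphate and iron lists the difference was mostly positive, for 13 of 20 and 15 of 28 genes, with medians in *mad1Δ bub2Δ* cells of −0.53 and −0.80.

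Of the 822 genes called in *cdc24-1 swe1Δ* cells, 230 (28.0%) were called with the same sign in *mad1Δ bub2Δ* cells, which is 10.1% of the 2277 called there, and 50 (6.08%) with the opposite sign. *PSD1*, phosphatidylserine decarboxylase of mitochondria, had 134, 178 and 120 CPM at 16 h, against 91.8, 87.9 and 87.1 CPM at 0 h in *cdc24-1 swe1Δ* cells. In *mad1Δ bub2Δ* cells it had 83.9, 68.5 and 94.1 CPM at 16 h, against 260, 247 and 270 CPM at 0 h. The groups moved in opposite directions without overlap, and the difference of the log2 changes was 2.37 (edgeR adjusted p = 3.5e-09). *GRX1* was lower at 16 h in *cdc24-1 swe1Δ* cells, with 67.0, 32.7 and 33.3 CPM against 83.2, 93.7 and 83.1 CPM at 0 h, and higher in *mad1Δ bub2Δ* cells, with 106, 171 and 85.9 CPM against 41.6, 35.97 and 52.9 CPM at 0 h (difference −2.42, adjusted p = 1.9e-05). *HXT7*, which ranked first among the named falls in *cdc24-1 swe1Δ* cells, had a log2 change of −0.03 in *mad1Δ bub2Δ* cells (difference −3.31, edgeR adjusted p = 7.4e-04). Its reads can be divided with *HXT6*, and the sum over both genes was not taken in *mad1Δ bub2Δ* cells.

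In *cdc24-1 swe1Δ* cells made polyploid at 37 °C, 49.3% of genes changed over 16 h, 26.0% higher and 23.4% lower. The change of cycling cells differed from that of polyploid cells for 2292 genes (38.0%), positively for 1104 (18.3%) and negatively for 1188 (19.7%). By limma on log2(TPM + 1), where the median difference over all genes was −0.53, it was positive for 282 and negative for 1588, and 24 of the 2292 had the opposite sign. The 16 h libraries at 37 °C had 7.04%, 16.7% and 5.34% rRNA, against 3.27%, 1.23% and 1.35% in their 0 h libraries, and replicate 3 at 16 h had 1597321 counts. The part of these in the result was not tested. Temperature and ploidy differ together here and cannot be told apart. Of the 822 genes, 245 (29.8%) were called with the same sign in polyploid cells, or 8.24% of the 2974 called there, and 151 (18.4%) with the opposite sign. Ribosome biogenesis genes had a median of 0.72 in cycling and −0.14 in polyploid cells, with a positive difference for 38 of 65, and ribosomal protein genes one of −0.09 in cycling and −1.24 in polyploid cells, where 121 of 139 fell. For gluconeogenesis and nonfermentable carbon the medians were −0.69 in cycling and 1.03 in polyploid cells, and the difference was negative for 25 of 31. Trehalose and glycogen genes, with 15 of 20 lower and 0 higher in cycling cells, were split in polyploid cells, with 9 lower and 5 higher. Their medians were −1.21 in cycling and −0.60 in polyploid cells, and the difference was negative for 12 and positive for 1. Ergosterol genes had medians of 0.22 in cycling and −1.10 in polyploid cells, with a positive difference for 23 of 24. After only 4 h at 37 °C, against the same 0 h libraries, 46 of 65 ribosome biogenesis genes were higher and 0 lower (median 0.71). At that time 15 of 36 Msn2/Msn4 genes were lower and 3 higher (median −0.68). Of 20 trehalose and glycogen genes, 12 were lower and 0 higher (median −0.90). Among all 6028 genes, 1023 were higher and 707 lower at 4 h. Changes of these directions in the 3 lists were thus not particular to cycling cells.

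Single genes showed contrasts between cycling and polyploid cells at 16 h. *FAR1*, with 84.0, 157 and 125 CPM at 16 h in cycling cells, had 27.3, 14.01 and 15.3 CPM at 16 h in polyploid cells, against 49.9, 56.5 and 51.1 CPM in their own 0 h libraries (difference 2.70, edgeR adjusted p = 2.2e-06). *RIM4*, an RNA-binding regulator of meiosis, had 4.51, 4.81 and 0.773 CPM at 16 h in cycling cells, against 11.9, 11.4 and 4.79 CPM at 0 h, and 66.5, 82.4 and 83.3 CPM at 16 h in polyploid cells, against 13.2, 11.2 and 10.5 CPM at 0 h (difference −4.16). The estimated changes of cycling and polyploid cells thus had opposite signs in both genes. For *RIM4* the values of cycling cells were low and overlapped, with 4.81 CPM in 16 h replicate 2 and 4.79 CPM in 0 h replicate 3. *MNN9* and *MNN10*, mannosyltransferase subunits of the Golgi, had positive differences of 1.61 and 1.47, and *SGA1*, a glucoamylase of sporulating cells, a negative one of −3.30.

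**Figure D5:**
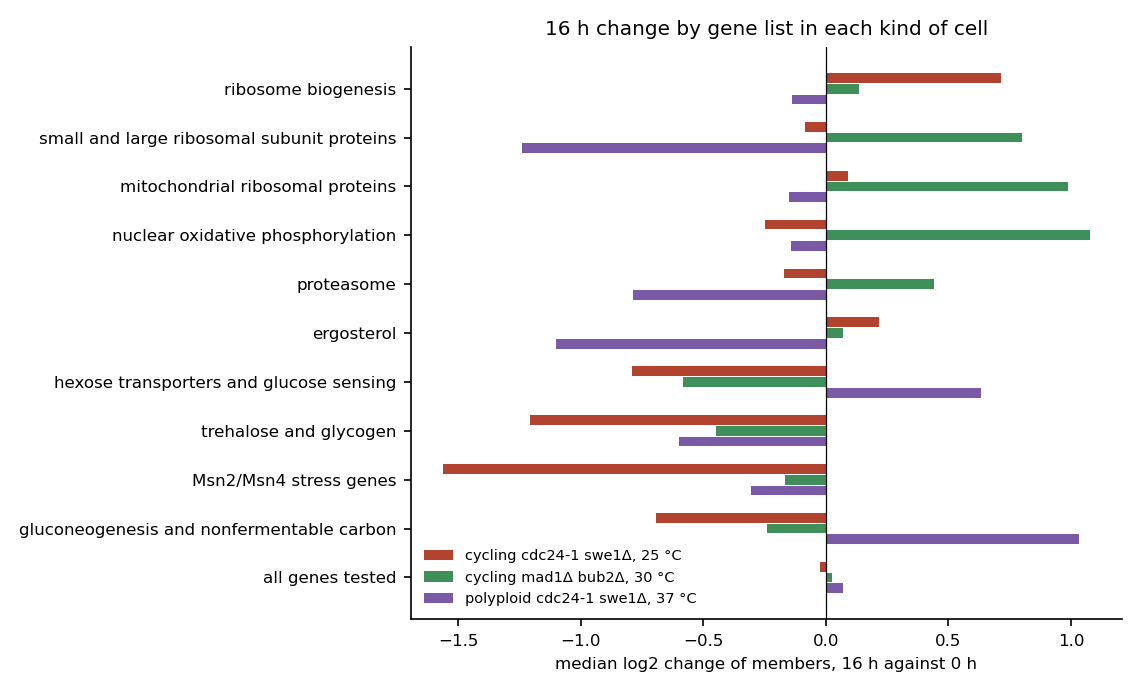
Median log2 change from 0 h to 16 h over the members of 10 gene lists and over all genes tested, in cycling *cdc24-1 swe1Δ* cells at 25 °C (red), cycling *mad1Δ bub2Δ* cells at 30 °C (green) and polyploid *cdc24-1 swe1Δ* cells at 37 °C (purple). Ribosome biogenesis stands at 0.72, 0.14 and −0.14, and gluconeogenesis and nonfermentable carbon at −0.69, −0.24 and 1.03, in that order of cells.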

How the data were processed

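RNA of *S. cerevisiae* was sequenced after selection of poly(A) RNA. The authors used nf-core/rnaseq, with STAR for alignment to the R64 build and Salmon for quantification, and what they deposited are estimated counts of each gene as whole numbers, without normalization. Deposited log2(TPM + 1) values served 1 alternative. Whether counting used strand is not given in the sources used here, so overlapping and antisense genes may share reads. Names came from the RefSeq R64 annotation, where 6014 of 6843 features were found by systematic name.

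Counts were normalized by TMM, filtered with filterByExpr and tested in edgeR 4.0.16 (R 4.3.3; glmQLFit, glmQLFTest; 1 coefficient per group over the 36 libraries of the *cdc24-1 swe1Δ* test, and over 72 for the difference from *mad1Δ bub2Δ* cells). A gene was called below an adjusted p of 0.05 (Benjamini-Hochberg). DESeq2 1.42.0, limma 3.58.1, other filters, scalings and 0 h libraries, a culture block and leaving out each library were alternatives. Log2 changes are 16 h over 0 h with a standard error (SE). CPM of *mad1Δ bub2Δ* cells were scaled over the 72 libraries, and those of *cdc24-1 swe1Δ* cells over the 36. Python 3.11.15 with scipy 1.17.1 gave the exact tests.

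The members of the comparison and the 41 gene lists were chosen with earlier results of these data known. Genes were named by rule: the 15 largest rises and falls among calls with a mean of at least 5 CPM in the higher group and no overlap between groups, up to 6 called members per list and direction, the 6 called genes of lowest adjusted p per difference and direction, and the genes that mark the strain. Uncalled members were named to show a family. *HSP12*, *HSP26*, *GSY2*, *TPS1*, *TPS2* and *UGP1* were chosen after their values were seen.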

Additional observations from a re-analysis of the deposited data

Results flagged for a closer look

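The change over 16 h in cycling *cdc24-1 swe1Δ* cells differed from that in cycling *mad1Δ bub2Δ* cells for 1338 genes, and from that in *cdc24-1 swe1Δ* cells at 37 °C for 2292 genes, by a test of the difference of the 2 changes (edgeR). The genes given here were those of lowest adjusted p in each direction, and each value is a difference of log2 changes.

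Against cycling *mad1Δ bub2Δ* cells, the difference was positive for *PSD1* (2.37) and for *IPT1* (1.51), which makes the most complex yeast sphingolipid, *SMF3* (1.77), *TCB2* (1.27) and *ICE2* (1.70), proteins of the cortical endoplasmic reticulum, and *AKR1* (1.10), a palmitoyltransferase. It was negative for *GRX1* (−2.42), *NNR2* (−2.06), a repair enzyme of hydrated NAD, *GCG1* (−1.81), which degrades glutathione, *STF1* (−2.71), a regulator of ATP synthase, *OTU1* (−1.29), a deubiquitylase, and *UMP1* (−1.76), a proteasome chaperone.

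Against cells at 37 °C, the difference was positive for *FAR1* (2.70), *TCB2* (1.72), *EFR3* (1.89), a plasma membrane scaffold of a lipid kinase, *MNN9* (1.61), *MNN10* (1.47) and *RMT2* (1.62), a methyltransferase. It was negative for *DSF1* (−3.94), a mannitol dehydrogenase homologue, *RIM4* (−4.16), *SGA1* (−3.30) and *FBP1* (−5.08), the last at under 8 CPM in every library compared. The reading frames YCR099C (−2.92) and YDR133C (−2.12) are uncharacterized, and their reads may be shared with other genes.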

How the results depend on the processing

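Beside the 822 calls, the 6 libraries alone gave 139 (136 of them shared) and limma on log2(TPM + 1) gave 265 (251 shared). A change of at least 2-fold was met by 203 of the 822. Single libraries left out gave 274 to 1009. DESeq2, its size factors, other filters, rRNA left out, other 0 h libraries, and 2 alternatives chosen after seeing the data (edgeR's robust option, and leaving out 2 libraries of other groups that stood apart) stayed within 1.5 times. limma gave 63.4% of calls as higher, against 50.4%. The replicate block gave 831 calls in 36 libraries and 382 in the 6 alone. Correlations of same-numbered deviations were 0.08, −0.06 and 0.18, and not every library correlated best with its own number. The difference from *mad1Δ bub2Δ* cells was called for 595 genes with 12 libraries alone, 518 with their replicate block, and 624 to 1773 when single libraries were left out. On log2(TPM + 1) the median difference over all genes was 0.45 against *mad1Δ bub2Δ* cells, with 1380 genes higher and 120 lower. It was −0.53 against 37 °C, with 282 higher and 1588 lower. At 0 h the replicate block on 6 libraries called 2 genes. Called list members were 215, and 56 with the 6 libraries alone. The DNA content difference stayed between −12.5 and −19.5 kAU. For 168 named genes, 3176 values under alternatives kept their sign, and 818 no longer passed. In every fit that left out a library, 53 of the 168 were called, and 42 in the fit on 6 libraries. Genes of few counts are limited by depth.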

Other observations

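The thiamine, pyridoxine and biotin list had 3 of 25 genes lower at 16 h and 0 higher in cycling *cdc24-1 swe1Δ* cells (median −0.47), namely *SNZ1* (−1.72) and *SNZ3* (−0.77) of pyridoxine synthesis and *THI4* (−0.99) of thiamine synthesis. The difference from cells at 37 °C, where the median was 1.21, was negative for 18 of the 25. That count of 3 was 0 without 0 h replicate 1 or 0 h replicate 2, and 1 without 16 h replicate 2 or 16 h replicate 3.

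Of 16 hypoxic genes tested, 3 were lower and 0 higher: *ANB1* (−1.84), a translation factor made without oxygen, *HEM13* (−0.60) of haem synthesis and the haem-responsive regulator *HAP1* (−0.50). Left without single libraries, 1 or 2 of them were called, with 1 when 0 h replicate 2, 16 h replicate 2 or 16 h replicate 3 was left out. The pyrimidine list split, with *URA7* (0.83), *URA1* (0.70) and *FUR4* (0.61) higher and *URA10* (−1.02) and *URA8* (−0.74) lower. The 3 higher calls became 0 without 0 h replicate 2 or 16 h replicate 3, 1 without 0 h replicate 1 or 16 h replicate 1, and 2 without 0 h replicate 3 or 16 h replicate 2, and *FUR4* passed in none of these 6 fits. *URA7* and *URA8* encode the CTP synthases of yeast, and their calls were of opposite direction. The proteasome list had 1 of 33 genes lower (*RPT3*, −0.38) and a median of −0.17 in these cells, against 0.44 in *mad1Δ bub2Δ* cells and −0.79 at 37 °C.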
